A study of Xenopus tropicalis with 10 samples.

Results

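The comparison set 1 library of tail tissue collected 15 hours post amputation (15 hpa) against 2 libraries of tissue taken at 0 hpa, which are 3 of the 10 libraries of the series. The samples were assigned by their labelled collection time. The animals were stage 40 tadpoles of *Xenopus tropicalis*, a frog, and the labels give no genotype, strain or drug. At 15 hpa the tail had been amputated and left to heal, while at 0 hpa the sample was the strip next to the fresh wound, removed by a second cut right after the first. The other libraries were the whole tail removed by that first cut (2 libraries), 6 hpa (1), 24 hpa (2) and 72 hpa (2). The 0 hpa tissue had therefore been wounded only moments before and came from next to the wound, and no group held unamputated tadpoles as old as those at 15 hpa. How much stump the 15 hpa tissue held, and whether animals were pooled, is not given in the labels. The design text speaks of duplicates; the sources used here do not say whether the single 15 hpa library merges a pair.

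A cut *Xenopus* tail is first covered by a wound epidermis, a sheet of epidermal cells that migrates over the exposed tissue. Neutrophils and macrophages enter the wound, clear debris and secrete proteases and cytokines. Matrix metalloproteinases (MMPs) cut collagen and other matrix proteins, and fibronectin forms a provisional matrix on which cells migrate. Progenitor cells later gather below the epidermis and rebuild notochord, spinal cord and muscle, with FGF, Wnt, BMP and activin among the signals involved.

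The 15 hpa library was far deeper than those it was compared with: it held 121670034 gene reads against 22280063 and 22114681 at 0 hpa, and the range over the series was 15966579 to 128768239. A count of 3 reads, taken as the detection floor, equals 0.895 normalised reads at 15 hpa but 5.62 and 5.50 at 0 hpa. A normalised read is a gene's reads divided by the library's size factor, and values of different genes are not per length. All 40 genes matched to the markers of 8 cell types of the tail (muscle, notochord, epidermis, nervous system, red blood cells, leukocytes, endothelium and pigment cells) were above 0 in the 3 libraries; NOTO, SYT1, CORO1A and PMEL were not analysed here. The median absolute log2 difference over genes was 0.33 between the 0 hpa replicates, and 0.468 and 0.421 between the 15 hpa library and each of them. Between the replicates of the other groups it was 0.301 at 24 hpa, 0.389 at 72 hpa and 0.362 in the whole tail. On the first principal component (39.3% of the variance) the 15 hpa library lay at 1.08, between 6 hpa (-23.7) and the 24 hpa pair (11.8 and 42.1). The 0 hpa libraries lay at -68.2 and -32.7 there. On the second principal component (12.9% of the variance) the 15 hpa library lay at the low end, at -72.9, with the other 9 libraries between -30.0 and 49.2. The labels do not say whether replicates were separate animals or pools, so each p-value reflects only how these libraries varied, and that variation may be technical.

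Among the genes higher at 15 hpa than at 0 hpa were 4 keratins, fibronectin, 4 matrix metalloproteinases, 7 leukocyte and myeloid genes and complement C3. Of the 17896 genes tested, 41 rose (0.229% of the genes tested) and 24 fell (0.134%), by limma at a Benjamini-Hochberg adjusted p under 0.05. The spread came from the 4 duplicated groups, since 15 hpa has no replicate. The fit had 4 residual degrees of freedom, and 3 where 1 duplicated library was left out, which also makes calls harder to reach. At an unadjusted p under 0.05, 1253 genes were higher (7.0%) and 1157 lower (6.47%). The median log2 fold change of all tested genes was -0.02, and 48.6% of them had a higher fitted value at 15 hpa. All 65 called genes carry the flag of change in the authors' deposited table, whose test is not stated there. That flag is on 5075 of the 17896 genes tested and stands in the same table as these values, so it is no independent support. On the recovered reads edgeR called 42 genes higher (0.235%) and 12 lower (0.0671%), and DESeq2 416 higher (2.32%) and 417 lower (2.33%). Any single duplicated library weighed on these counts: without 0 hpa replicate 1, 0 rose and 1 fell by limma (945 and 777 at an unadjusted p under 0.05), without 0 hpa replicate 2, 0 rose and 2 fell (1137 and 1076), and without 1 of the others 2 to 12 rose and 3 to 9 fell. With replicate 1 or 2 of 0 hpa left out, XETROV90005353M.G was the only one of the 65 that remained called.

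**Figure D1:**
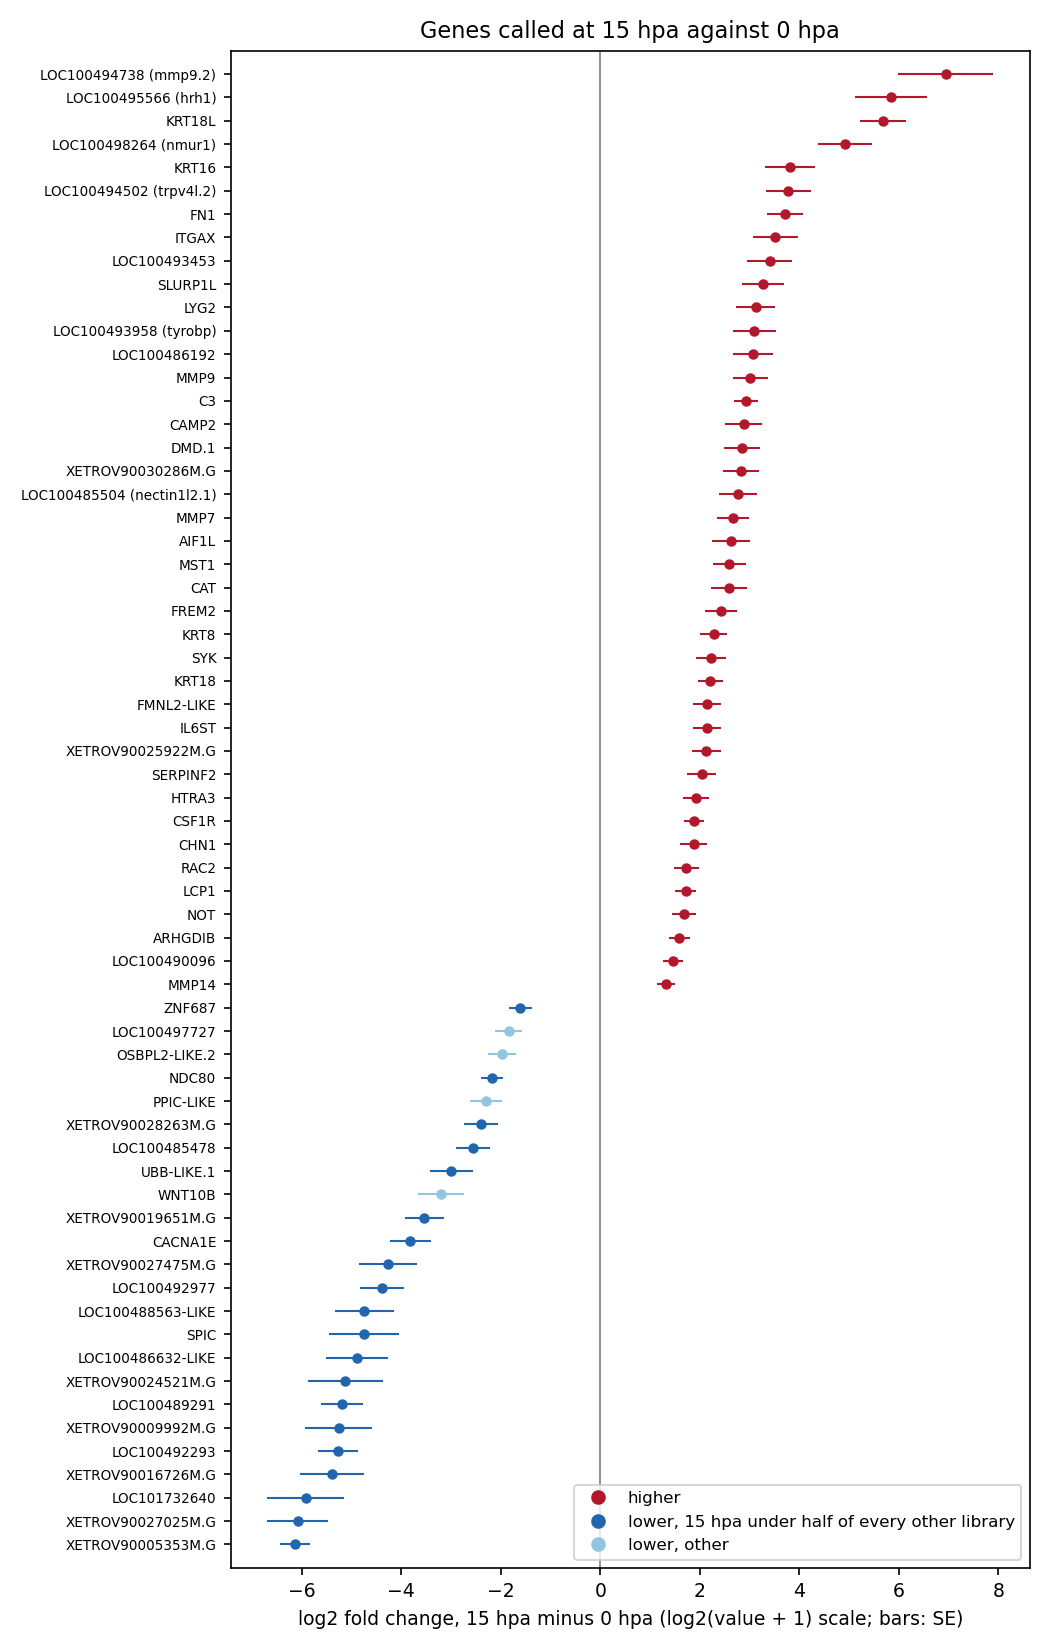
Log2 fold change of 64 of the 65 called genes, 15 hpa minus 0 hpa on the log2(value + 1) scale, with bars for the SE of the limma fit. Red points are 40 of the 41 rises, dark blue points the 20 falls in which the 15 hpa value was under 1/2 of every other library, and light blue points the other 4 falls. Rises run from MMP14 at 1.33 to LOC100494738 (mmp9.2) at 6.95 and falls from ZNF687 at -1.61 to XETROV90005353M.G at -6.14.

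Some keratins, the intermediate filament proteins of epithelial cells, rose, and most did not pass. Of 24 keratin and intermediate filament genes tested, 4 rose (KRT18L, KRT16, KRT8 and KRT18), beside 0.229% of all genes, and 20 did not pass. Fitted values were higher in 12 (48.6% of all genes) and lower in 12. The list's median log2 fold change was -0.01, beside -0.02 for all genes. KRT18L, a keratin 18-like gene, had 5389 normalised reads at 15 hpa against 103 and 104 at 0 hpa (log2 fold change of 5.69 with SE 0.464, limma adjusted p = 0.0125). Values of KRT18L elsewhere were 72.3 and 174 in the whole tail, 1047 at 6 hpa, 3316 and 2843 in the 24 hpa pair and 540.4 and 554 in the 72 hpa pair. Its 2 values at 0 hpa lay within the range of the whole tail and far below all later libraries. KRT16 had 269358 normalised reads at 15 hpa against 13942 and 26473 at 0 hpa (log2 fold change of 3.81 with SE 0.508, limma adjusted p = 0.041). KRT16 had 304372 and 258876 in the whole tail, 29555 in the 6 hpa library, 277558 and 399707 in the 24 hpa pair and 166006 and 94100.2 in the 72 hpa pair. Its 15 hpa value lay between those of the whole tail, so it was the 0 hpa and 6 hpa libraries that stood low. KRT8 and KRT18 encode the paired keratins of simple epithelia, and KRT8 is also transcribed in the notochord. KRT8 stood at 16220.5 and 11824 at 0 hpa and 67128 at 15 hpa (log2 fold change of 2.28 with SE 0.28, limma adjusted p = 0.041), and KRT18 at 13189 and 9776 at 0 hpa and 52724 at 15 hpa (log2 fold change of 2.22 with SE 0.254, limma adjusted p = 0.0369). KRT19 had a value of 16189 at 15 hpa against 8563 and 14079 at 0 hpa and did not pass (limma adjusted p = 0.581). A pair of other keratins from the epidermis markers, named after their values were seen, had lower values that did not pass. KRT12 had 319453 and 351876 normalised reads at 0 hpa and 224821 at 15 hpa (limma adjusted p = 0.653), and LOC549413, a locus matched to the KRT12 marker, 162377 and 88303 at 0 hpa and 61755 at 15 hpa (limma adjusted p = 0.505). The 9 genes matched to epidermis markers, KRT18 and both of these included, summed to 608693 and 551948 normalised reads at 0 hpa and 426631 at 15 hpa. KRT12 and LOC549413 were the largest of the 9 in each library compared, so the sum mostly follows them. The other markers, named after their values were seen, were mixed. TP63 had 9456 and 8034 at 0 hpa and 11457 at 15 hpa, and EPCAM 75288 and 68087 at 0 hpa and 46042 at 15 hpa. CDH1, GRHL3 and LOC100486967 lay between their 0 hpa values, and LOC100493614 was below both. The sources used here do not say how reads shared by near-identical keratin copies were counted, so the split between copies, here and for the MMP9 genes, is uncertain.

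FREM2, nectin1l2.1 and SLURP1L were further rises, while no gene of the epithelial junction list was called. FREM2, a matrix protein of the epidermal basement membrane, rose from 9404 and 6821 to 42989.5 (log2 fold change of 2.42 with SE 0.321, limma adjusted p = 0.041). The 20 tested integrin and laminin genes had a median log2 fold change of 0.46. ITGA5, the fibronectin receptor's alpha chain, had 1219.8 and 1442 normalised reads at 0 hpa and 4695 at 15 hpa (limma adjusted p = 0.154), whereas LAMA3, a laminin chain of the epidermal basement membrane, had 3202 and 2744 normalised reads at 0 hpa and 1438 at 15 hpa (limma adjusted p = 0.301). LOC100485504, named nectin1l2.1 in RefSeq after the nectin adhesion proteins, had 1005 normalised reads at 15 hpa against 119.9 and 179.5 at 0 hpa (log2 fold change of 2.77 with SE 0.375, limma adjusted p = 0.0426). For nectin1l2.1, the whole tail libraries gave 219 and 183, the 6 hpa library 149, the 24 hpa pair 145 and 159.7 and the 72 hpa pair 153 and 163. Its 15 hpa value was over 4 times that of any other library. SLURP1L rose from 189 and 213 to 1950.5 (log2 fold change of 3.28 with SE 0.417, limma adjusted p = 0.041). None of 33 epithelial junction genes was called, and their median was -0.18.

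Among matrix genes, fibronectin rose while no collagen was called. FN1, which encodes fibronectin, had 208843 normalised reads at 15 hpa against 19008 and 13268 at 0 hpa (log2 fold change of 3.72 with SE 0.36, limma adjusted p = 0.0264). Values of FN1 elsewhere were 46594 and 35032 in the whole tail, 79423 at 6 hpa, 304219 and 222884 in the 24 hpa pair and 120608 and 138434 in the 72 hpa pair. It was higher in all later libraries than in the whole tail and at 0 hpa, and its 24 hpa values were above the 15 hpa value. FN1 was the only one of 34 provisional matrix and hyaluronan genes called (list median -0.05). LOX, an enzyme that cross-links collagen, had 17682 and 8607 normalised reads at 0 hpa and 1339.9 at 15 hpa (log2 fold change -3.20, limma adjusted p = 0.0651). ACAN, a cartilage proteoglycan, had 88.1 and 62.3 normalised reads at 0 hpa and 439 at 15 hpa (limma adjusted p = 0.202). HAS2, a hyaluronan synthase, had a log2 fold change of 0.47 and was not called. Of 23 collagen and collagen-processing genes, 19 had lower fitted values (median -0.78; 51.3% of all genes were lower) and none was called. That median was -0.42 without 0 hpa replicate 1 and -1.02 without replicate 2. The collagen chains of cartilage and notochord sheath COL9A1 and COL9A2 illustrate this, with 41487 and 28838 normalised reads at 0 hpa and 15635 at 15 hpa for COL9A1 and 20534 and 14709.6 normalised reads at 0 hpa and 7772 at 15 hpa for COL9A2 (limma adjusted p = 0.229 and 0.236).

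A set of 4 matrix metalloproteinases rose together. Of 32 genes for matrix proteases and their inhibitors, 4 rose and none fell (0.229% and 0.134% of all genes did). Fitted values were higher in 23 (48.6% of all genes). The median was 0.97, with 0.92 without 0 hpa replicate 1 and 0.97 without replicate 2. LOC100494738, named mmp9.2 in RefSeq, had 14887 normalised reads at 15 hpa against 58.1 and 245 at 0 hpa (log2 fold change of 6.95 with SE 0.954, limma adjusted p = 0.044). mmp9.2 had 12.1 and 35.3 in the whole tail, 7512 in the 6 hpa library, 10319 and 5240.1 in the 24 hpa pair and 829.8 and 1859 in the 72 hpa pair. Its 2 values at 0 hpa differed over 4-fold, yet both were above the whole tail and far below 6 hpa. MMP9, a gelatinase secreted by leukocytes and epidermis, had 11727 normalised reads at 15 hpa against 1295 and 1623 at 0 hpa (log2 fold change of 3.02 with SE 0.346, limma adjusted p = 0.0369). For MMP9, the whole tail libraries gave 631 and 593, the 6 hpa library 6179, the 24 hpa pair 2327 and 3796 and the 72 hpa pair 11022 and 7658. MMP9 was thus high at 6, 15 and 72 hpa and intermediate at 24 hpa, while mmp9.2 was lower at 72 hpa than at 6, 15 and 24 hpa but still above 0 hpa. MMP7, matrilysin, had 1342 and 1275 normalised reads at 0 hpa and 8285 at 15 hpa (log2 fold change of 2.66 with SE 0.321, limma adjusted p = 0.041). MMP14, a membrane-bound MMP that activates other MMPs, had 5625 and 6037 normalised reads at 0 hpa and 14604 at 15 hpa (log2 fold change of 1.33 with SE 0.186, limma adjusted p = 0.0451). Another 3 proteases had large differences that did not pass: MMP11 with 174 and 227 at 0 hpa and 2015 at 15 hpa (log2 fold change 3.33, limma adjusted p = 0.0515), the collagenase MMP13 with 39.3 and 49.5 at 0 hpa and 1131 at 15 hpa (4.65, limma adjusted p = 0.0705), and LOC100490019, named mmp13l in RefSeq, with 24.4 and 343 at 0 hpa and 6321 at 15 hpa (6.08, limma adjusted p = 0.185). Outside the list, HTRA3, a secreted serine protease, rose from 918 and 758 to 3168 (log2 fold change of 1.92 with SE 0.269, limma adjusted p = 0.0448). The read share of leukocyte genes moved with this group (0.0652% and 0.0776% at 0 hpa, 0.224% at 15 hpa), and its part in the rise was not tested.

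Leukocyte genes were the list with the highest median of the 43. Of 38 leukocyte and myeloid genes tested, 7 rose and none fell (0.229% and 0.134% of all genes did). Fitted values were higher in 31 (48.6% of all genes) and lower in 7, with log2 fold changes from -3.13 to 3.51. The members named below are all from the higher side. The median was 1.57, with 1.58 without 0 hpa replicate 1 and 1.66 without replicate 2. The 40 list genes in the table took 0.0652% and 0.0776% of gene reads at 0 hpa and 0.224% at 15 hpa, the highest share of the 10 libraries. In bulk tissue, more cells of a type and more RNA per cell cannot be told apart, and the same holds for lower values.

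ITGAX, an integrin alpha chain of myeloid cells, had 1445 normalised reads at 15 hpa against 111 and 143 at 0 hpa (log2 fold change of 3.51 with SE 0.452, limma adjusted p = 0.041). Values of ITGAX elsewhere were 47.3 and 90.9 in the whole tail, 643 at 6 hpa, 276 and 357 in the 24 hpa pair and 457 and 372 in the 72 hpa pair. No other library reached its 15 hpa value, and even the 6 hpa library was over 2-fold below it. CSF1R, the receptor through which macrophages are maintained, had 3218 normalised reads at 15 hpa against 838 and 909 at 0 hpa (log2 fold change of 1.88 with SE 0.198, limma adjusted p = 0.0318). CSF1R had 939.6 and 913 in the whole tail, 2427 in the 6 hpa library, 2074 and 2317 in the 24 hpa pair and 3966 and 4144 in the 72 hpa pair. Its 15 hpa value lay below both 72 hpa libraries and above all others. LOC100493958, named tyrobp in RefSeq after an adaptor protein of myeloid receptors, rose from 63.7 and 45.8 to 471 (8.6-fold, limma adjusted p = 0.044). SYK, the kinase recruited by such adaptors, rose from 129 and 152 to 660.4 (log2 fold change of 2.23 with SE 0.309, limma adjusted p = 0.044). The remaining 3 called members encode parts of the cytoskeleton machinery of blood cells. RAC2, a small GTPase of blood cells, had 536 and 661 normalised reads at 0 hpa and 1979 at 15 hpa (log2 fold change 1.73), LCP1, an actin bundler, 1309.7 and 1409 at 0 hpa and 4463 at 15 hpa (1.72), and ARHGDIB, which holds small GTPases inactive, 1079 and 1216 at 0 hpa and 3446 at 15 hpa (1.59), with limma adjusted p = 0.0492, 0.041 and 0.0426. Genes of granules and of the oxidative burst had higher values but did not pass. MPO, a neutrophil peroxidase, had 2503 and 2713 normalised reads at 0 hpa and 11260.0 at 15 hpa (limma adjusted p = 0.0686). NCF4, a subunit of the phagocyte oxidase, had 67.5 and 75.1 normalised reads at 0 hpa and 479 at 15 hpa (limma adjusted p = 0.0723), and SPI1, a transcription factor of myeloid cells, 78.7 and 106 at 0 hpa and 425 at 15 hpa (limma adjusted p = 0.0857).

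**Figure D2:**
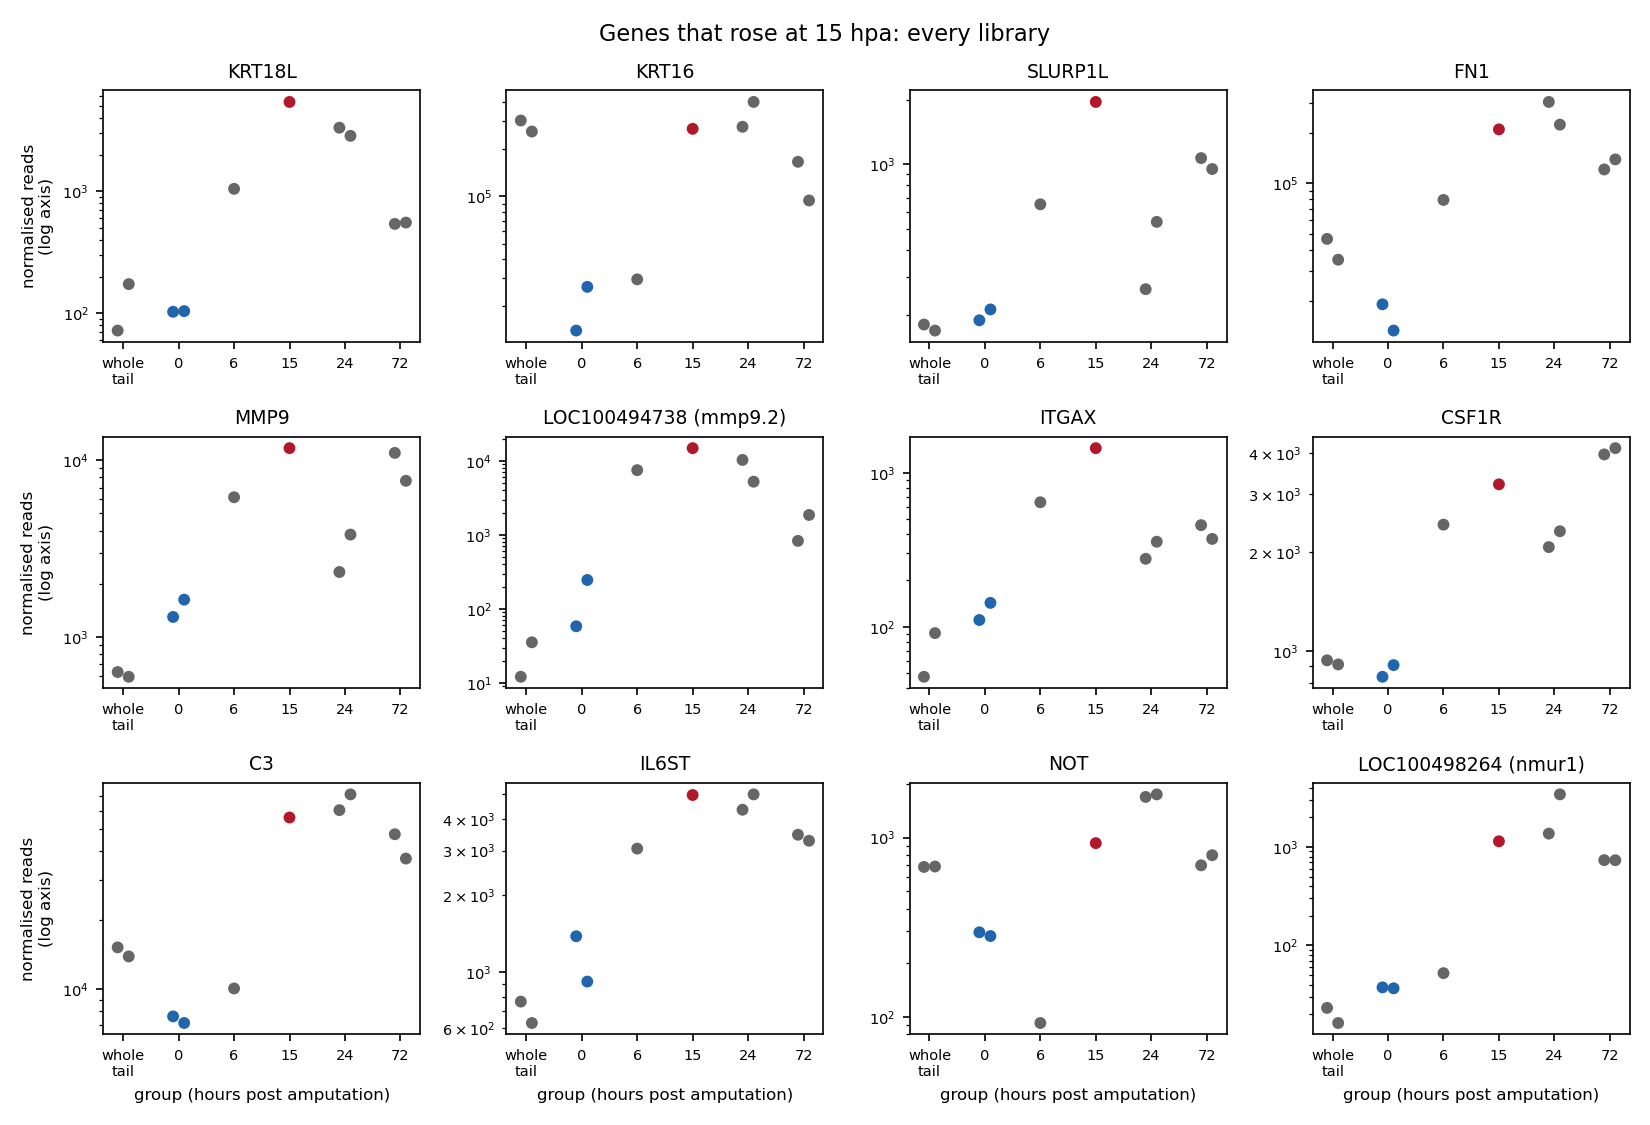
Normalised reads (log axis) of 12 genes that rose at 15 hpa, 1 panel each, with a point for every library and the groups in order along the horizontal axis. Blue points are the 0 hpa libraries, the red point is the 15 hpa library and grey points are the others. In each panel the red point lies above both blue points; both whole tail points also lie above both blue points for KRT16, FN1, CSF1R, C3 and NOT, and C3, NOT and LOC100498264 (nmur1) had 6 hpa values of 10059, 92.3 and 52.3, far below 15 hpa.

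C3, the central complement protein, rose, as the 1 called gene of 24 complement, coagulation and protease inhibitor genes. It had 56137 normalised reads at 15 hpa against 7596 and 7108 at 0 hpa (log2 fold change of 2.93 with SE 0.246, limma adjusted p = 0.0125). For C3, the whole tail libraries gave 15206 and 13883, the 6 hpa library 10059, the 24 hpa pair 60467 and 70851 and the 72 hpa pair 47442 and 37150.1. At 6 hpa it was still near the 0 hpa level, and from 15 hpa it was above both whole tail libraries. CFB, complement factor B, had 230.5 and 363 normalised reads at 0 hpa and 3233 at 15 hpa (log2 fold change 3.48, limma adjusted p = 0.0593). Of the list's genes 16 had higher fitted values (48.6% of all genes did), with a median of 0.82. Outside this list, 4 other called genes are given here by name. SERPINF2, the antiplasmin that inhibits clot dissolution, rose from 209.9 and 216 to 877 (log2 fold change of 2.04 with SE 0.298, limma adjusted p = 0.0492). CAMP2, named after the cathelicidin antimicrobial peptides, rose from 152 and 141 to 1085 (log2 fold change of 2.88 with SE 0.376, limma adjusted p = 0.041). LYG2, a goose-type lysozyme, rose from 257 and 258 to 2257 (log2 fold change of 3.13 with SE 0.389, limma adjusted p = 0.041). CAT, named after catalase, which breaks down hydrogen peroxide, had 313 and 458 normalised reads at 0 hpa and 2279 at 15 hpa (log2 fold change of 2.59 with SE 0.362, limma adjusted p = 0.0448). Another copy, CAT.2, named after its value was seen, had 3005 and 3199 normalised reads at 0 hpa and 1892 at 15 hpa (limma adjusted p = 0.338).

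Cytokine genes themselves were mostly not called. Of 21 genes for cytokines, chemokines and their receptors, IL6ST alone rose. The list's median was 0.40, but 0.06 without 0 hpa replicate 1 and 0.24 without replicate 2. IL6ST, the shared signalling receptor (gp130) of the interleukin 6 family, had 4959.7 normalised reads at 15 hpa against 1381 and 916 at 0 hpa (log2 fold change of 2.14 with SE 0.284, limma adjusted p = 0.041). Values of IL6ST elsewhere were 764 and 629.5 in the whole tail, 3054 at 6 hpa, 4342 and 4989 in the 24 hpa pair and 3462 and 3279 in the 72 hpa pair. STAT3.1, named after the transcription factor that gp130 activates, had 569.6 and 498 normalised reads at 0 hpa and 1799 at 15 hpa (limma adjusted p = 0.0688), and none of the 26 cytokine and NF-kappaB feedback genes was called (median 0.01). IL1B, an early inflammatory cytokine, had 1053 and 1107 normalised reads at 0 hpa and 379 at 15 hpa (limma adjusted p = 0.465), with 71.4 and 128 in the whole tail. SOCS3, a feedback inhibitor downstream of gp130, had 8516 and 5239.7 normalised reads at 0 hpa and 7742 at 15 hpa (limma adjusted p = 0.923). IL1R2, a decoy receptor for interleukin 1, had 332 and 275 normalised reads at 0 hpa and 1443 at 15 hpa (limma adjusted p = 0.219). MST1, the macrophage stimulating protein, rose from 73.1 and 66 to 425 (log2 fold change of 2.60 with SE 0.325, limma adjusted p = 0.041). The whole tail libraries had 256 and 256, above both 0 hpa libraries, and the log2 fold change of MST1 against the whole tail was 0.728.

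Another 3 of the called rises are loci that RefSeq names after receptors or a channel. LOC100498264, named nmur1 in RefSeq after a neuromedin U receptor, had 1142 normalised reads at 15 hpa against 37.5 and 36.6 at 0 hpa (log2 fold change of 4.91 with SE 0.542, limma adjusted p = 0.0345). nmur1 had 23.2 and 16.3 in the whole tail, 52.3 in the 6 hpa library, 1367 and 3423 in the 24 hpa pair and 735 and 734 in the 72 hpa pair. LOC100495566, named hrh1 after the histamine H1 receptor, had 0 reads in both 0 hpa libraries and 56.1 normalised reads at 15 hpa, at least 9.98-fold higher against the floor of 3 reads in 1 library at 0 hpa (limma adjusted p = 0.041). It stood at 183 and 99.7 at 24 hpa. LOC100494502, named trpv4l.2 after the TRPV4 cation channel, had 1105 normalised reads at 15 hpa against 86.2 and 73.3 at 0 hpa (log2 fold change of 3.78 with SE 0.45, limma adjusted p = 0.041). For trpv4l.2, the whole tail libraries gave 76.1 and 97.7, the 6 hpa library 1137, the 24 hpa pair 279 and 365 and the 72 hpa pair 405 and 780.1. The channel-like gene was already as high at 6 hpa as at 15 hpa, whereas nmur1 was near its 0 hpa level at 6 hpa.

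Signalling genes of regeneration showed few calls. Of 54 TGF-beta and BMP genes, 29 FGF genes and 52 Wnt genes tested, WNT10B was the only one called, and the list medians were 0.32, 0.10 and 0.23. WNT10B, a secreted Wnt ligand, had 96.4 normalised reads at 15 hpa against 1229 and 652 at 0 hpa (log2 fold change of -3.20 with SE 0.466, limma adjusted p = 0.0492). Values of WNT10B elsewhere were 419 and 472 in the whole tail, 555 at 6 hpa, 156 and 97.3 in the 24 hpa pair and 262 and 207 in the 72 hpa pair. It fell from a 0 hpa level above the whole tail and was low in all libraries from 15 hpa onward. INHBA, the subunit of activin A, had 174 and 97.1 normalised reads at 0 hpa and 1113 at 15 hpa (log2 fold change 3.09, limma adjusted p = 0.0653), and FGF20, a secreted growth factor, 18.7 and 44 at 0 hpa and 297 at 15 hpa (3.32, limma adjusted p = 0.0748). LEF1, a transcription factor of the Wnt pathway, had 1894 and 1409 normalised reads at 0 hpa and 4609 at 15 hpa (limma adjusted p = 0.103). WNT5A, a non-canonical Wnt ligand, had 281 and 293 normalised reads at 0 hpa and 647 at 15 hpa (limma adjusted p = 0.202). FGF8 had a log2 fold change of 1.26, MSX1, a homeobox target of BMP, one of -0.65, and TGFB1 one of 0.12, none of them called. The FGF genes were split, with 15 higher and 14 lower fitted values. The largest change among them was a lower value: FGFBP3 had 251 and 106 normalised reads at 0 hpa and 11.6 at 15 hpa (log2 fold change -3.70, not called).

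NOT, a homeobox gene of the notochord and tailbud, followed another course. It had 930.5 normalised reads at 15 hpa against 296 and 282 at 0 hpa (log2 fold change of 1.68 with SE 0.238, limma adjusted p = 0.0453). NOT had 685 and 689 in the whole tail, 92.3 in the 6 hpa library, 1685 and 1741 in the 24 hpa pair and 699.9 and 797 in the 72 hpa pair. It was the lowest of all at 6 hpa, and the difference between 15 and 6 hpa was itself called (log2 fold change 3.32, limma adjusted p = 0.0221); it was the 1 gene higher in that comparison (0.00559% of genes tested), which has a single library on each side. Of 29 notochord and hedgehog genes, NOT and KRT8 rose, and the median was -0.07. Other called rises encode proteins that act on the actin cytoskeleton. DMD.1, named after dystrophin, which links the actin cytoskeleton to the matrix, had 459 and 376 normalised reads at 0 hpa and 2987 at 15 hpa (log2 fold change of 2.84 with SE 0.364, limma adjusted p = 0.041). CHN1, a GTPase-activating protein for Rac, rose from 369 and 370.1 to 1357 (log2 fold change 1.87, limma adjusted p = 0.0492), and FMNL2-LIKE, named after a formin, from 97.4 and 106 to 454 (2.15, limma adjusted p = 0.041). AIF1L, an actin-binding protein, had 831 normalised reads at 15 hpa against 118 and 152 at 0 hpa (log2 fold change of 2.62 with SE 0.381, limma adjusted p = 0.0492). For AIF1L, the whole tail libraries gave 1946 and 1467, the 6 hpa library 131, the 24 hpa pair 1006 and 636 and the 72 hpa pair 187 and 153. Its 15 hpa value was above 0 hpa but below both whole tail libraries.

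Hox genes had mostly higher values at 15 hpa than at 0 hpa, and tailbud genes were mixed with a median above 0. Both lists had medians below 0 against the whole tail. Of 37 Hox genes, which encode transcription factors of body axis position, 30 had higher fitted values (48.6% of all genes did), with a median of 0.72 against 0 hpa and -0.52 against the whole tail; none was called. HOXD11 had 1183 normalised reads at 15 hpa against 378 and 513 at 0 hpa (limma adjusted p = 0.291 against 0 hpa). Values of HOXD11 elsewhere were 1921 and 1202 in the whole tail, 329 at 6 hpa, 606 and 1303 in the 24 hpa pair and 892 and 595 in the 72 hpa pair. HOXA13, of the posterior end, had 200.5 and 669 normalised reads at 0 hpa and 712 at 15 hpa (limma adjusted p = 0.637). HOXC13, of the same position, had 1285 and 1649 normalised reads at 0 hpa and 2006 at 15 hpa (limma adjusted p = 0.775). The 28 tailbud progenitor genes had a median of 0.43 against 0 hpa and -1.12 against the whole tail, and NOT was the 1 that rose. Against 0 hpa, 17 of them had higher and 11 lower fitted values, with log2 fold changes from -4.07 to 3.18. SALL4, a zinc finger factor of embryonic progenitors, had 1431 and 1312 normalised reads at 0 hpa and 4639 at 15 hpa (limma adjusted p = 0.0811). Against the whole tail, whose far end holds the tailbud, the positions compared differ too, so time and position cannot be told apart there.

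Genes for building ribosomes had higher values as a group, each by a small amount. Of 40 ribosome biogenesis genes, 39 had higher fitted values (48.6% of all genes did) and none was called. At an unadjusted limma p under 0.05, 24 of them were higher (7.0% of all genes). Their median was 0.79, with 0.59 without 0 hpa replicate 1, 0.92 without replicate 2, and 0.97 against the whole tail. UTP20, part of the complex that processes ribosomal RNA, had 984 and 1293 normalised reads at 0 hpa and 2752 at 15 hpa (log2 fold change 1.29, limma adjusted p = 0.15), and RRP12 1068 and 1309.9 at 0 hpa and 2487 at 15 hpa (1.07, limma adjusted p = 0.193). The 60 cytosolic ribosomal protein genes had mostly lower fitted values, 56 of them (51.3% of all genes did). Their median of -0.15 became 0.0364 without 0 hpa replicate 2. Of 45 chromatin modifier genes, 38 had higher fitted values (48.6% of all genes did), with a median of 0.37. SMARCA4, the motor subunit of the SWI/SNF remodelling complex, had 1608 and 1491 normalised reads at 0 hpa and 4326 at 15 hpa (limma adjusted p = 0.124).

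Cell cycle genes were mostly lower in value. Of 43 mitosis and kinetochore genes, 40 had lower fitted values (median -0.32), beside 51.3% of all genes, and NDC80 fell. Of 53 DNA replication genes, 46 were lower in value (median -0.27) and none was called. CENPA, the histone variant of the centromere, had 2198 and 2204 normalised reads at 0 hpa and 1053 at 15 hpa (limma adjusted p = 0.173), and CCNA2, cyclin A2, 3592 and 3239 at 0 hpa and 2230.1 at 15 hpa (limma adjusted p = 0.367). NDC80, a kinetochore protein that binds microtubules, is described with the other falls, since its 15 hpa value stood apart from all other libraries.

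Red blood cell genes had the lowest median of the 43 lists, -1.98 over 32 genes. Of these, 31 had lower fitted values (51.3% of all genes did), and none was called. The list took 1.28% and 4.04% of gene reads at 0 hpa, 0.476% at 15 hpa and 0.731% and 0.602% in the whole tail. The 0 hpa replicates thus differed widely in this share. The list's median was -2.52 without 0 hpa replicate 1 and -1.39 without replicate 2. GATA1, the transcription factor of the red cell lineage, had 271 normalised reads at 15 hpa against 1055 and 3347 at 0 hpa (limma adjusted p = 0.152). GATA1 had 659 and 358 in the whole tail, 639 in the 6 hpa library, 399 and 262 in the 24 hpa pair and 125 and 153 in the 72 hpa pair. HBZ, an embryonic globin, had 41624 and 56964 normalised reads at 0 hpa and 4282 at 15 hpa (limma adjusted p = 0.119). Scaling the libraries without erythroid genes gave 41 rises and 24 falls, but size factors are medians over genes, so dropping this list moves them little. The part of blood content in other differences was not tested.

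Immediate early genes, switched on within minutes of a stimulus, had mostly lower values than at 0 hpa. The 37 genes had a median of -0.94 against 0 hpa and 0.01 against the whole tail, with none called. The whole tail libraries differed from each other: their list medians relative to 0 hpa were -1.26 and -0.425, with the 15 hpa median between them. EGR1, a zinc finger factor of this class, had 5633 normalised reads at 15 hpa against 14684 and 15985 at 0 hpa (limma adjusted p = 0.085). For EGR1, the whole tail libraries gave 6709 and 8409, the 6 hpa library 3111, the 24 hpa pair 3643 and 3560.2 and the 72 hpa pair 5917 and 8455. EGR2 had 2460.1 and 1839 normalised reads at 0 hpa and 101 at 15 hpa (limma adjusted p = 0.284), JUNB 62714 and 54601 at 0 hpa and 25107 at 15 hpa (limma adjusted p = 0.286) and FOS 54438 and 44658 at 0 hpa and 25453 at 15 hpa (limma adjusted p = 0.701). The 0 hpa libraries were thus the higher side for this class, as they were for red blood cell genes.

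Genes of the nervous system were mostly lower in value. Of 38 genes of differentiated neurons 30 and of 33 neural progenitor genes 28 had lower fitted values (51.3% of all genes did), with no calls. Their medians were -0.82 and -0.80. These were -0.50 and -0.76 without 0 hpa replicate 1, and -1.15 and -1.24 without replicate 2. In the 24 hpa libraries, medians relative to 0 hpa were -1.23 and -1.64 for neurons and -0.98 and -0.93 for progenitors. NEUROD1, a neuronal differentiation factor, had 11.3 normalised reads at 15 hpa against 126 and 106 at 0 hpa (log2 fold change -3.24, limma adjusted p = 0.0886). Values of NEUROD1 elsewhere were 129.9 and 71.9 in the whole tail, 40.6 at 6 hpa, 15 and 10.8 in the 24 hpa pair and 9.27 and 9.72 in the 72 hpa pair. ELAVL4, an RNA-binding protein of neurons, had 1641 and 1253 normalised reads at 0 hpa and 574 at 15 hpa (limma adjusted p = 0.167), and FABP7, a lipid-binding protein of neural progenitors, 3899 and 1942 at 0 hpa and 311 at 15 hpa (limma adjusted p = 0.142). SOX2, a factor of neural progenitors, had 946 and 784 normalised reads at 0 hpa and 517 at 15 hpa (limma adjusted p = 0.508). At an unadjusted limma p under 0.05, 3 of the neuron genes were higher and 11 lower (7.0% and 6.47% of all genes). Among the higher ones, GAD1.2 had 22.5 and 7.33 normalised reads at 0 hpa and 104 at 15 hpa (log2 fold change 2.91, limma adjusted p = 0.178). The 45 skeletal muscle genes had a median of 0.07 and took 0.849% and 0.839% of gene reads at 0 hpa and 1.22% at 15 hpa. Their share differed far more within the other pairs: 2.07% and 0.354% in the whole tail, 1.36% and 0.55% at 24 hpa and 0.419% and 1.96% at 72 hpa. MYOD1, a regulator of muscle commitment, had 35.6 and 76.9 normalised reads at 0 hpa and 146 at 15 hpa (limma adjusted p = 0.665). Secretory cell and ionocyte genes of the epidermis (29) had no call. Their median was -0.61, with -0.33 without 0 hpa replicate 1 and -0.80 without replicate 2.

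**Figure D3:**
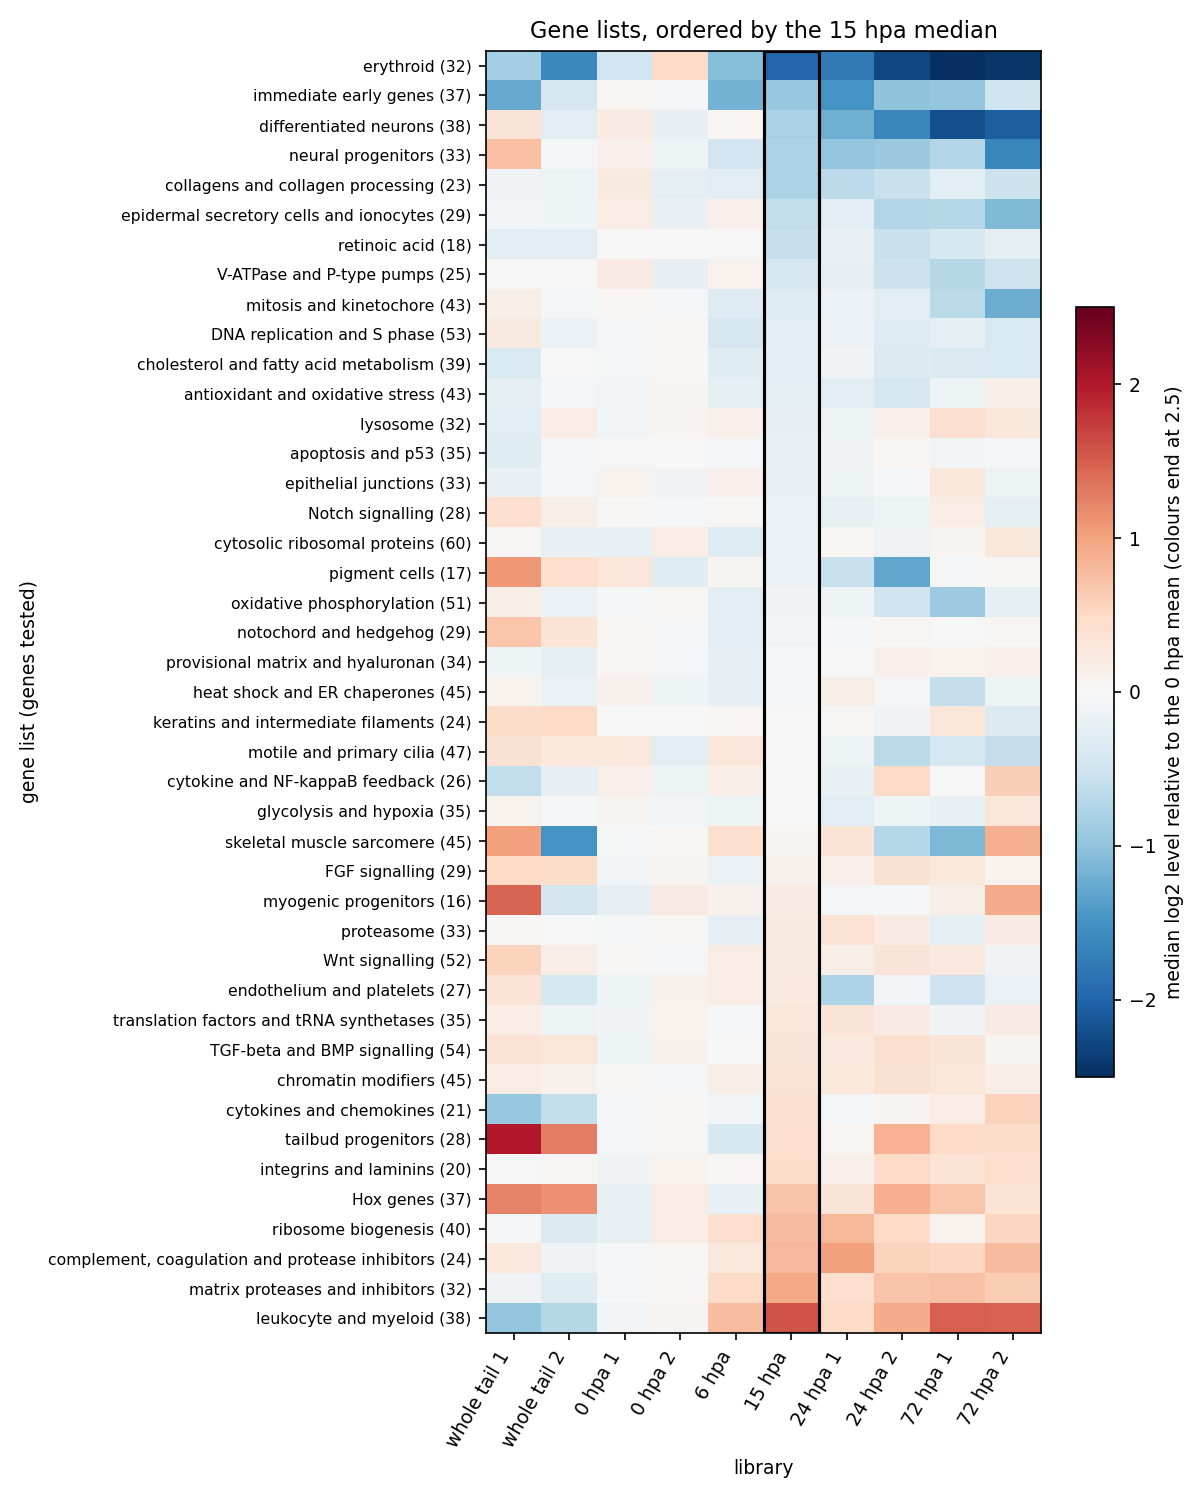
Median log2 level of 43 gene lists in each of the 10 libraries relative to the mean of the 0 hpa libraries, with the number of tested genes in parentheses and lists ordered by the 15 hpa median. The boxed column is the 15 hpa library. It runs from -1.98 for erythroid genes to 1.57 for leukocyte genes; the whole tail columns are high for tailbud and Hox genes.

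The 24 genes that fell behaved unlike the rises. In 23 of them the 15 hpa library was the lowest of all 10. It was under 1/2 of the lowest other library in 20 and under 1/4 in 15, and 5 genes had 0 reads at 15 hpa. The filter sets part of this contrast, since it asked for 10 normalised reads in 2 or more libraries. A gene that reached this level only at 15 hpa was not tested, whereas a gene below it only at 15 hpa was. In 18 of the 24, the 6 hpa library and both 24 hpa libraries lay within 2-fold of the 0 hpa mean, so the low value was not seen at 6 or 24 hpa. The gene with the smallest p, XETROV90005353M.G, which has no symbol, had 68.3 normalised reads at 15 hpa against 5782 and 4122 at 0 hpa (log2 fold change of -6.14 with SE 0.3, limma adjusted p = 0.00118). XETROV90005353M.G had 4057 and 5902 in the whole tail, 5835 in the 6 hpa library, 4435 and 5156 in the 24 hpa pair and 4450.0 and 4742 in the 72 hpa pair. All 9 other libraries were between 4057 and 5902. LOC100489291, without a symbol too, had 675 and 753 normalised reads at 0 hpa and 18.5 at 15 hpa and lay between 480.5 and 1032 in the other 9 (log2 fold change of -5.19 with SE 0.419, limma adjusted p = 0.0125).

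Only 5 of the 24 falls carry a symbol of their own and 3 a name of the kind UBB-LIKE.1; the other 16 are locus identifiers. NDC80 had 1286 normalised reads at 15 hpa against 6007 and 5670.2 at 0 hpa (log2 fold change of -2.18 with SE 0.217, limma adjusted p = 0.0264). For NDC80, the whole tail libraries gave 5035 and 4832, the 6 hpa library 5114, the 24 hpa pair 5244 and 4284 and the 72 hpa pair 4161 and 4943. CACNA1E, a subunit of a voltage-gated calcium channel, had 13.4 normalised reads at 15 hpa against 204 and 199.7 at 0 hpa (log2 fold change of -3.81 with SE 0.416, limma adjusted p = 0.034). Values of CACNA1E elsewhere were 185 and 236 in the whole tail, 275 at 6 hpa, 139 and 138 in the 24 hpa pair and 211 and 134 in the 72 hpa pair. ZNF687, a zinc finger protein, fell from 4377 and 3728 to 1325 with 3193 as the lowest value elsewhere (log2 fold change of -1.61 with SE 0.227, limma adjusted p = 0.0453). SPIC, an ETS family transcription factor related to SPI1, had 0.298 normalised reads at 15 hpa against 26.2 and 44 at 0 hpa (limma adjusted p = 0.0493). SPIC had 18.6 and 39.3 in the whole tail, 25.3 in the 6 hpa library, 36.9 and 28.8 in the 24 hpa pair and 48.2 and 58.3 in the 72 hpa pair; its 1 read at 15 hpa is below the floor of 3 reads there. UBB-LIKE.1, named after a ubiquitin gene, had 527 and 725 normalised reads at 0 hpa and 76.7 at 15 hpa, and OSBPL2-LIKE.2, named after an oxysterol-binding protein, 506 and 539 at 0 hpa and 132 at 15 hpa (limma adjusted p = 0.049 and 0.0492). PPIC-LIKE, named after a cyclophilin, was the exception: it had 518 normalised reads at 15 hpa against 3099 and 2094 at 0 hpa (limma adjusted p = 0.0477). For PPIC-LIKE, the whole tail libraries gave 2079 and 2156, the 6 hpa library 1050.4, the 24 hpa pair 391 and 390.2 and the 72 hpa pair 648 and 433, and like WNT10B it was low at later times too.

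**Figure D4:**
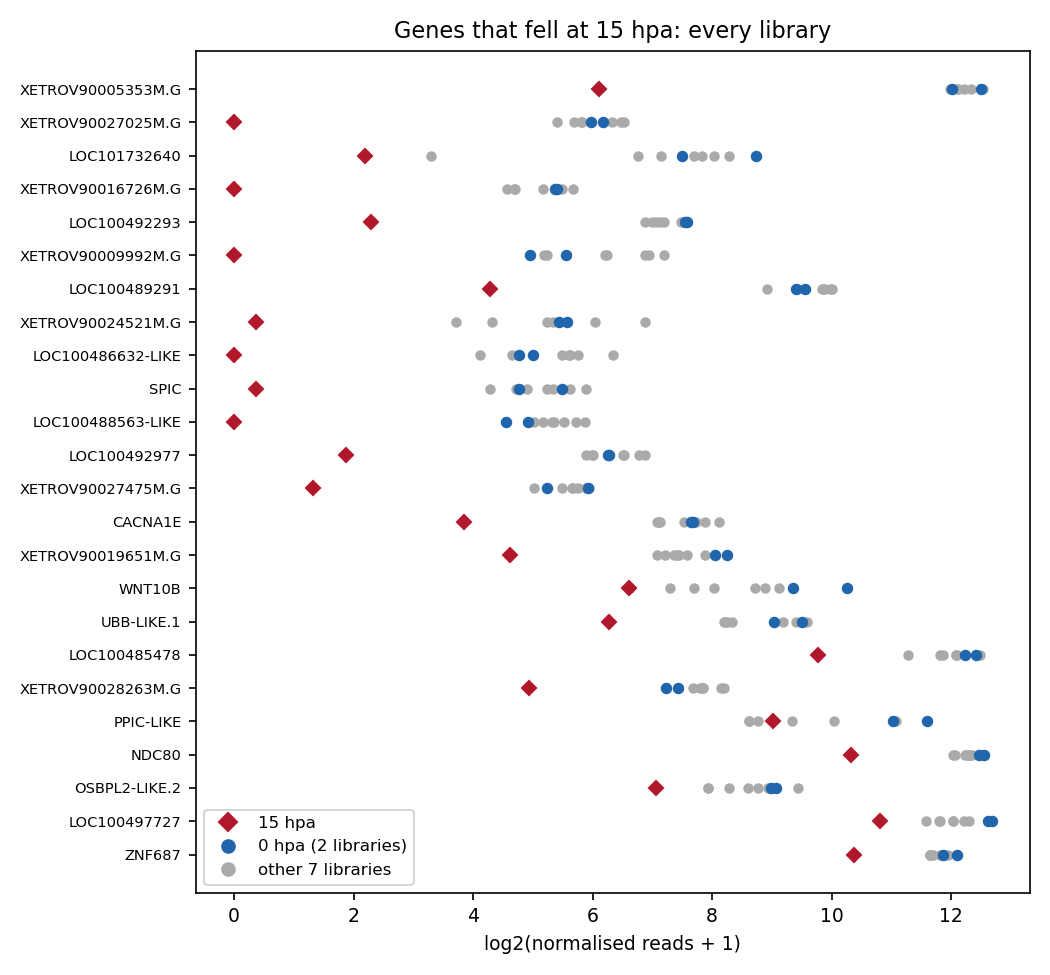
Log2(normalised reads + 1) of the 24 genes that fell, 1 row each, in all 10 libraries. Red diamonds are the 15 hpa library, blue points the 0 hpa libraries and grey points the other 7 libraries. In 23 rows the diamond is the lowest value, and PPIC-LIKE, at 518 normalised reads, is the row where it is not.

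The same shape was seen beyond the called genes. Of the 24 falls, 19 belong in the authors' deposited table to a cluster of 241 genes (C5), whose median log2 level relative to 0 hpa was -1.82 in the 15 hpa library and between -0.11 and 0.37 in the other 9. Of the 41 rises, 29 belong to another cluster of 487 genes (C6 in the authors' deposited table), with a median of 1.49 at 15 hpa and 0.94 and 1.06 at 24 hpa. The clusters stand in the same table as these values, so they are no independent support. Among genes with at least 20 normalised reads on the higher side, 28 were over 4-fold lower at 15 hpa than in every other library and 17 over 4-fold higher. For 6 hpa, the other deep library without a replicate, the same counts were 0 and 3. Libraries with a replicate gave 0 to 53 and 1 to 64, with most in 72 hpa replicate 2, the shallowest. Whether genes low at 15 hpa alone reflect the time or this library cannot be told apart with 1 library, and no fit without that library can be made.

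The genes high in the 15 hpa library alone included FOXH1, a transcription factor that acts with activin and Nodal signals, with 201 normalised reads at 15 hpa and at most 20.4 elsewhere (limma adjusted p = 0.119). PGLYRP1-LIKE.1, named after a peptidoglycan recognition protein, had 489 against at most 116 elsewhere (limma adjusted p = 0.153). Both were named after their values were seen. Of the 17 such genes only nectin1l2.1 was called, but several of the 17 were removed by the filter on low values and never tested. The filter thus partly set this count in advance. A further 5 of the 41 rises are locus identifiers without a symbol, with log2 fold changes between 1.46 and 3.40.

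Among the 41 rises, the 15 hpa library was the highest of all 10 for 24, was above both 24 hpa libraries for 29 and below both for 9. These genes were selected for a high value in that same library, which favours such ranks, as selection for a low value does for the falls. The ranks over all genes are not given beside them, so these counts do not show a peak at 15 hpa. Set against 24 hpa directly, no gene was higher at 15 hpa (0.0%) and 6 were lower (0.0335%) by limma, with 283 higher and 543 lower at an unadjusted p under 0.05; edgeR and DESeq2 were not run on this contrast. At 15 against 6 hpa, NOT was higher and 3 genes were lower (0.0168%). At these spreads, differences between 15 hpa and its neighbours in time were thus rarely called, which does not show that the times are alike.

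Against the whole tail in place of 0 hpa, 92 genes were higher at 15 hpa (0.514% of genes tested) and 29 lower (0.162%) by limma. Of the 41 rises 29, and of the 24 falls 18, were also called there, with the same 15 hpa library on the other side. Of the 41 rises, 39 were above both whole tail libraries at 15 hpa, and for 18 of the 41 both whole tail libraries were above both 0 hpa libraries. KRT16 and AIF1L were the 2 rises whose 15 hpa value was not above both whole tail libraries. The leukocyte median was 2.29 and that of matrix proteases 0.61 with this reference, while the erythroid median was -0.37 beside -1.98 with 0 hpa.

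**Figure D5:**
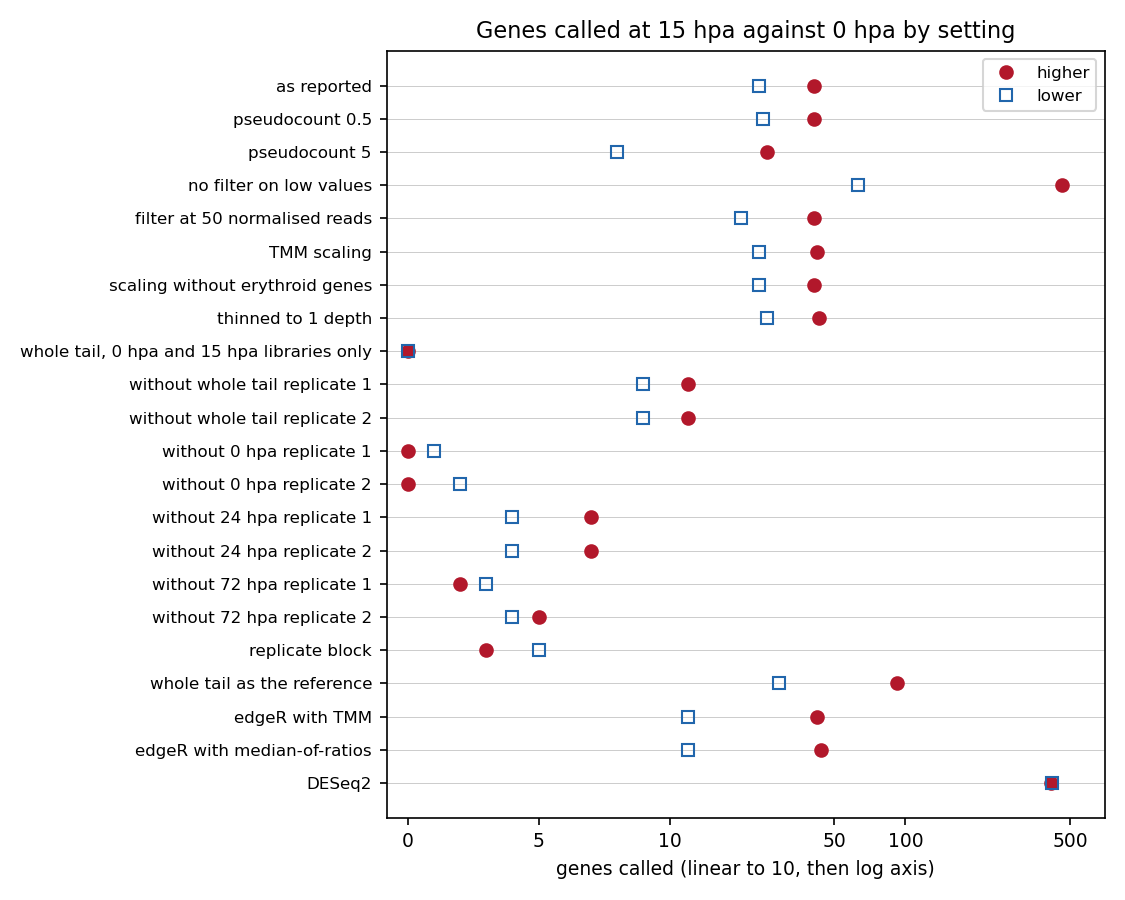
Number of genes called higher (filled circles) and lower (open squares) at 15 hpa under each setting; the axis is linear up to 10 and logarithmic above. As reported, 41 genes were higher and 24 lower. Counts were 416 and 417 with DESeq2, and 460 and 63 without the filter on low values. They were 0 and 0 with only the whole tail, 0 hpa and 15 hpa libraries in the fit. Leaving out any single duplicated library also lowered both counts.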

How the data were processed

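Libraries were made with an Illumina TruSeq kit from the total RNA of stage 40 tadpole tails, per the labels' protocols. The tools listed in the submitters' processing notes, with no roles given, are R 3.2.0, DESeq2, HTSeq, TopHat2 2.0.13, SAMtools 1.1 and Trim Galore 0.3.3. The sources used here do not give genome build, annotation or strand, so overlapping genes cannot be told apart. The authors deposited a normalised signal for 26550 genes in 10 libraries. All values (100% at a tolerance of 0.01) were whole reads divided by 1 factor per library, and these factors matched the size factors that DESeq2's median-of-ratios method gives for those reads. Whole reads were used for depth, for edgeR and for DESeq2.

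limma (3.58.1, R 4.3.3) was run on log2(value + 1) with a variance trend, on the 17896 genes that reached 10 normalised reads in 2 or more libraries. All 10 libraries entered 1 fit with 6 groups and 4 residual degrees of freedom. Fold changes on this scale understate the change of low genes. edgeR (4.0.16) called 42 genes higher and 12 lower on the recovered reads. DESeq2 (1.42.0) left 347 adjusted p-values as NA. Tested on simulated data for this contrast with 17588 genes, limma found 6% of the genes given a change of 1 log2 unit, 44% at 2, 80% at 3 and 84% at 4, with 11 false calls among 118. Changes were given only to genes above a minimum mean level. All other genes had the same mean in every group, so the simulation lacks the real differences between groups. Chi-square per degree of freedom between replicates was 87.4 to 197, more than sampling noise gives.

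The 43 gene lists (1434 genes tested, 47 in more than 1 list) and the comparison itself were chosen with earlier results of these data known. Lists are described by counts and medians, without a test. Named genes are every called gene with a symbol, up to 4 members per list with the largest fold change among those with an unadjusted p under 0.05, at least 100 normalised reads in the higher group and no overlap, and a panel of 39 genes, 36 of them tested; not all are printed, 1 called gene is not reported here, and genes named outside this rule are said to be. Locus identifiers were named from RefSeq (assembly UCB_Xtro_10.0; 1114 of 4653 matched a symbol), for names only. The floor of 3 reads covers counting error only. Other settings tried were other pseudocounts, filters, scalings, tools and sets of libraries, thinning, a replicate block, the whole tail as reference, and fits without each duplicated library in turn.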

Additional observations from a re-analysis of the deposited data

How the results depend on the processing

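Of the 41 rises and 24 falls, 26 and 8 were left with a pseudocount of 5, and 34 of the 65 genes named for their call kept it. Without the filter on low values, 460 genes were higher and 63 lower, 386 of these 523 being genes that the filter had removed. With only the whole tail, 0 hpa and 15 hpa libraries in the fit, 0 were higher, 0 lower and 0 of the 65 still called by limma (1030 higher and 1172 lower at an unadjusted p under 0.05); there the fit had 2 duplicated groups to estimate the spread. DESeq2 called 416 higher and 417 lower, including all 65, and edgeR 42 or 44 higher and 12 lower, with TMM or median-of-ratios scaling, 39 rises and 12 falls in common with limma. With the whole tail as the reference, 92 were higher, and 29 lower. Leaving out 1 duplicated library gave 0 to 12 higher, 1 to 9 lower and 1 to 18 of the 65 still called. Those fits had 3 residual degrees of freedom in place of 4. Thinning the 15 hpa and 0 hpa libraries to 22114681 reads each, with the others kept, gave 43 and 26 (40 and 21 in common). Other pseudocounts, filters and scalings gave 41 or 42 higher and 20 to 25 lower. Of the 43 lists, 20 had a median above 0 as reported and 15 to 23 under the alternatives; without any 1 duplicated library, the median of 24 moved by over 1.5 times or changed sign, 8 of them in sign.

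Fitting the replicate number as a block left 3 higher and 5 lower, and 7 of the 65 called. The labels do not say whether libraries with the same number were paired. Correlations of same-numbered deviations between duplicated groups ran from -0.13 to 0.27. Such values cannot decide whether they were, since each duplicated group gives a single deviation per gene.

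With the whole tail as the reference, 9 of the genes compared across settings, which were not all of the named genes, changed sign. They were AIF1L to -1.02, FGF8 to -0.16, HOXA13 to -0.49, HOXC13 to -0.54, HOXD11 to -0.36, IL1B to 1.98, KRT16 to -0.0595, KRT19 to -1.60 and MYOD1 to -0.15. Other named genes did so too, such as DES.2 (from 2.92 to -0.44), EPOR (from -2.92 to 0.11) and DUSP5 (from -2.06 to 0.30). SOCS3 ranged from -0.14 to 0.56 over the fits without 1 library, changing sign without replicate 2 of 0 hpa. The cause of these shifts was not tested. Values at or under the floor (5.62 and 5.50 normalised reads at 0 hpa) limit what can be said of low genes.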

Other observations

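The metabolic and housekeeping lists given here had medians from -0.58 to 0.22, beside -0.02 for all genes, and CAT was their 1 called gene. Of 33 proteasome genes 26 had higher fitted values at 15 hpa (median 0.22), and of 51 oxidative phosphorylation genes 38 had lower ones (median -0.09); the medians were 0.02 for 35 glycolysis and hypoxia genes, 0.01 for 47 cilia genes and -0.21 for 32 lysosome genes. Of 39 cholesterol and fatty acid genes 28 had lower fitted values (median -0.27). None of these genes was called, and over all genes 48.6% had higher and 51.3% lower fitted values. HK2, a hexokinase, the enzyme that starts glycolysis, had 195 and 112 normalised reads at 0 hpa and 894 at 15 hpa (limma adjusted p = 0.0705). Of 43 antioxidant genes CAT was the 1 called (median -0.22), and MGST1, a glutathione transferase of membranes, had 1128 and 1447 normalised reads at 0 hpa and 228 at 15 hpa (limma adjusted p = 0.0768). Ion pump genes (V-ATPase and P-type, 25) had lower fitted values in 23 and retinoic acid genes (18) in 14, with no calls. The ion pump median was -0.43, with -0.21 without 0 hpa replicate 1 and -0.68 without replicate 2. The retinoic acid median was -0.58. CYP26A1, which breaks down retinoic acid, had 959 and 3519 normalised reads at 0 hpa and 272 at 15 hpa (limma adjusted p = 0.198).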
